A study of Rattus norvegicus with 12 samples.

Results

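Transcripts of 8 genes of γ-aminobutyric acid (GABA) handling and of neuroendocrine cells and sensory nerve fibres were examined in the bronchi of rats that had inhaled 2,3-pentanedione (PD), a flavoring chemical. The genes were Gad1, Gad2, Abat, Gabrp, Calca, Tac1, Chga and Uchl1, chosen by symbol in the annotation of the array. They are 8 of 14217 genes and are read by 14 of the 31042 probe sets tested. For the 4 genes with more than 1 probe set, the one of highest mean log2 signal over the 12 arrays was taken as the main one. The set was drawn up with earlier results of these data known, so its counts are given beside those of all genes.

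Male Wistar rats (Wistar-Han in the methods), aged 6 to 7 weeks on arrival, breathed filtered air or 200 ppm PD for 6 hours a day over 12 exposure days in 2 weeks. Bronchial wall was cut from frozen sections of the right diaphragmatic lobe by laser, and its RNA was amplified and read on Affymetrix arrays of the 3′ kind. There were 6 arrays of normal bronchi of air-exposed controls, 3 of fibrotic bronchi of PD-exposed rats (luminal polyps or plaques with the wall beneath) and 3 of non-fibrotic bronchial branches of PD-exposed rats, whose epithelium looked normal or was regenerating. Fibrotic tissue was collected from 5 rats and non-fibrotic tissue from 3 of those same rats. The labels do not tie arrays to rats, so the exposed groups may share animals and could not be paired. Arrays are named here by group and by the number in their label. The purpose was to compare gene expression in fibrotic and non-fibrotic airways after PD with that of control airways.

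GABA is made from glutamate by the 2 glutamate decarboxylases encoded by Gad1 and Gad2, and is broken down by GABA transaminase, the product of Abat. It acts through ligand-gated chloride channels, the GABA-A receptors, and through G protein-coupled GABA-B receptors. Gabrp encodes the pi subunit of the GABA-A receptor, which is found in epithelia outside the brain. In the airway, pulmonary neuroendocrine cells lie singly or in clusters in the epithelium and release GABA, serotonin and peptides from dense-core granules. Calca encodes calcitonin and calcitonin gene-related peptide, and Tac1 encodes substance P. Both peptides are carried by airway sensory nerves, and the former also by neuroendocrine cells. Chga encodes the granule protein chromogranin A, and Uchl1 encodes a deubiquitinating enzyme (PGP9.5) of neurons and neuroendocrine cells.

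Levels are given as the log2 of the MAS5 signal, so that a difference of 1 is 2-fold, and they were not compared between probe sets. A background level of 6.52 was set as the highest log2 signal among 84 readings of bacterial transcripts taken as not added to the samples. They were trp transcripts on all arrays and the poly-A control transcripts on controls 1 and 2. Those readings had a median of 3.04. Between 60.0% and 70.6% of probe sets lay above this level on an array. Signals under it have no reliable order, and a group with every array under it yields a bound rather than a fold. That bound is the mean of the other group over the background level, and it makes no allowance for spread. Differences were tested with limma over all probe sets, with an adjusted p (Benjamini-Hochberg) under 0.01 as the threshold for a call. The description labels of controls 3 to 6 carry a sample name, and those of controls 1 and 2 and of the exposed arrays carry none, so the controls were also used as 2 sets. The poly-A control transcripts had mean log2 signals of 2.31 to 2.33 on controls 1 and 2, where they were taken as not added. Their means were 9.99 to 10.63 on controls 3 to 6 and 8.02 to 11.06 on the exposed arrays. GAPDH is read near both ends of its transcript as a sign of RNA integrity, and its 3′ over 5′ log2 ratio was 1.16 to 2.03 on controls 1 and 2, 0.70 to 0.90 on controls 3 to 6, 1.59 to 2.11 in fibrotic and 1.95 to 2.35 in non-fibrotic bronchi. The part of these differences in the results was not tested.

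Only some of the 8 genes gave a signal above background. The main probe set of Gabrp was above it on all 12 arrays. Gad1 was above it on 6 arrays, which were the 6 controls, Abat on 5, Uchl1 on 4 and Calca on 3. Gad2 and Chga each reached it on 1 array and Tac1 on none. The defining granule marker Chga and the peptide gene Tac1 were thus at or near background throughout, so the set is described here gene by gene and not as a reading of neuroendocrine cells. In bulk tissue, fewer cells of a type cannot be told apart from less RNA per cell.

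Fibrotic arrays lay above all controls for 15.1% of all genes and under all controls for 13.4%. On the main probe sets, Gad1 and Uchl1 were the 2 members whose fibrotic arrays did not overlap with the controls. The 250 bases before their RefSeq gene starts (GRCr8) are shown to place them in the genome. They lie at chr3:75777202-75777451 on the plus strand for Gad1 and at chr14:41849418-41849667 on the minus strand for Uchl1, and are written 5′ to 3′ on the strand of the gene. Capitals mark the TATA box letters TATAAA and the GC box letters GGGCGG, read on both strands.
Gad1: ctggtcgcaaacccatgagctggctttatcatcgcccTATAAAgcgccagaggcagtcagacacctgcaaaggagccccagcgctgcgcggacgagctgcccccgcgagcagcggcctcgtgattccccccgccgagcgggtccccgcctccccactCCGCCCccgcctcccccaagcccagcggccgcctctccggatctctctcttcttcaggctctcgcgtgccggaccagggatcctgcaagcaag
Uchl1: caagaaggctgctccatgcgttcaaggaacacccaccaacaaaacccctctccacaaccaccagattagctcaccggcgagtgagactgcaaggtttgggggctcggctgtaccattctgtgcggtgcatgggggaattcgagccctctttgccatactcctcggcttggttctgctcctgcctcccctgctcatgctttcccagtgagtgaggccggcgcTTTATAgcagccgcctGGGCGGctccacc
The Gad1 window has a GC content of 68.4% and 23 CpG dinucleotides, and that of Uchl1 59.6% and 11, against medians of 51.2% and 5 in 33469 rat promoter windows of the same length. TATAAA stood in 12.9% and GGGCGG in 30.5% of those windows. In Uchl1 the TATA letters were on the opposite strand at position -29 from the start and the GC box at -13. In Gad1 the TATA letters were at -213 and the GC box was on the opposite strand at -93. Letters of an E-box (CAGCTG, in 12% of windows) or of the core of a cAMP response element (TGACG, in 18.2%) were in neither window. Of the members, 5 had a window in the table used, and Abat, Chga and Gabrp had none. These matches describe sequence only.

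**Figure D1:**
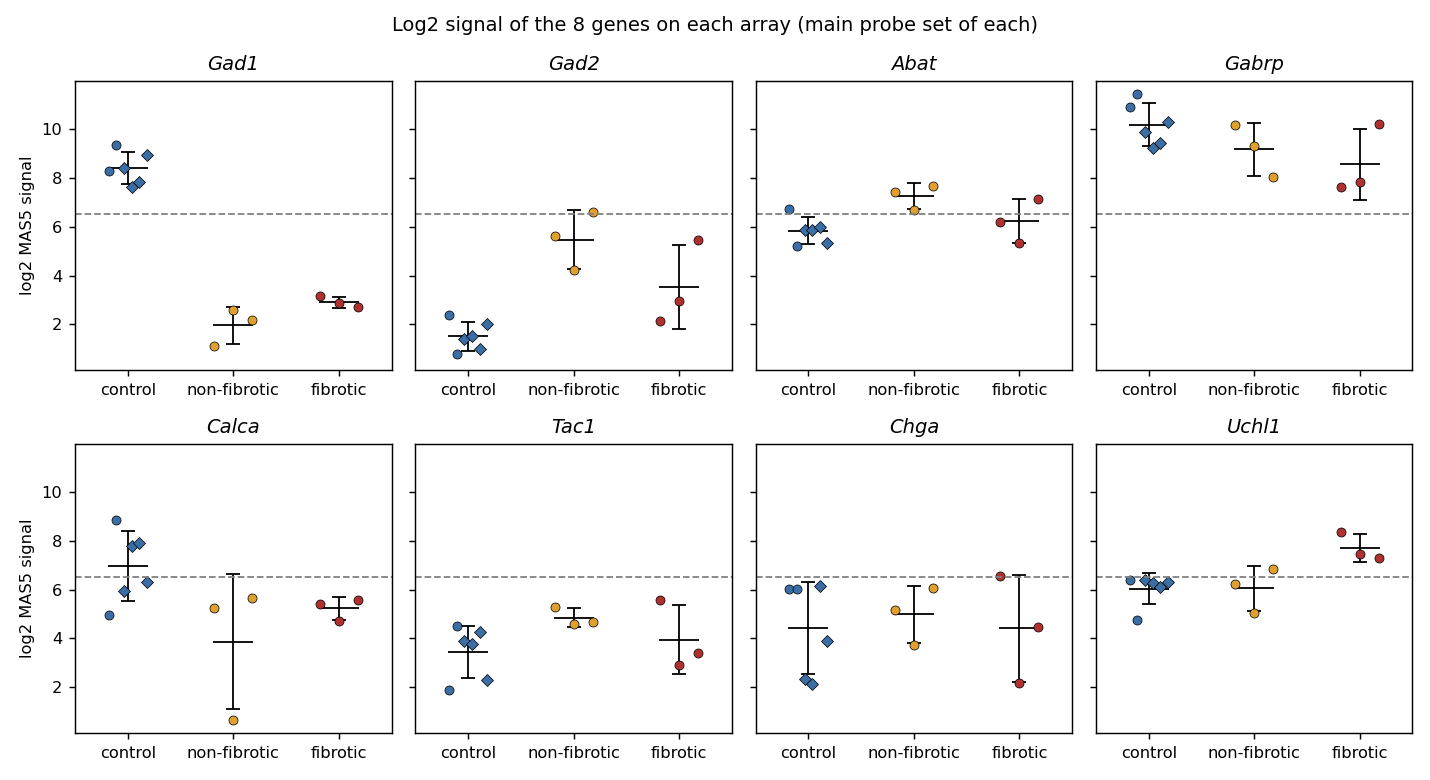
Log2 MAS5 signal of the main probe set of each of the 8 genes (vertical axis) on each array, by group (horizontal axis). Points are single arrays, diamonds are controls 3 to 6, the bar and whiskers are mean ± SD (n = 6, 3 and 3), and the dashed line is the background level of 6.52. Gad1 lies above the line on the 6 control arrays alone, Uchl1 above it on all 3 fibrotic arrays, and Gabrp on all 12.

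Gad1 was lower in both kinds of exposed bronchi than in controls. On control arrays 1 to 6 its log2 signal was 8.31, 9.37, 8.41, 7.65, 7.85 and 8.94, a mean of 8.42 ± 0.65 (SD, n = 6). On fibrotic arrays 3, 7 and 9 it was 3.17, 2.86 and 2.72 (2.92 ± 0.23, n = 3), and on non-fibrotic arrays 4, 8 and 10 it was 1.13, 2.61 and 2.18 (1.97 ± 0.76, n = 3). Every control array was above the background level, every exposed array was under it, and the groups did not overlap. On the linear scale the control signals ran from 201.4 to 660.2 with a median of 328.7, the fibrotic from 6.59 to 8.98 and the non-fibrotic from 2.20 to 6.11. Gad1 fell in fibrotic bronchi by 5.51 on the log2 scale (SE 0.58, adjusted p = 8.40e-06, limma). As the fibrotic arrays were all under background, this amounts to a level at least 3.74-fold lower, which is the control mean over the background level. In non-fibrotic bronchi the fitted difference was -6.45 (SE 0.58), with the same bound of at least 3.74-fold lower. That difference is given as a description without a test, because Gad1 was in the study's list of largest falls for that comparison. Both comparisons share the control arrays. Between fibrotic and non-fibrotic bronchi the 3 arrays of each group did not overlap, but all 6 were under background, and the difference of 0.94 did not pass the test (adjusted p = 0.443, limma).

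The lower Gad1 signal was present against either set of controls. Controls 1 and 2 had a mean of 8.84 and controls 3 to 6 a mean of 8.21. Against controls 1 and 2 alone the fibrotic difference was -5.92 (adjusted p = 0.00717, limma), and against controls 3 to 6 alone it was -5.30 (adjusted p = 8.52e-05, limma). Over all alternatives for this difference the adjusted p ran from 6.17e-06 to 0.506. The high end came from the second Gad1 probe set (1370760_a_at), which stayed under background on all 12 arrays, between 0.47 and 4.77. It made no call, and its difference between fibrotic and control bronchi was 0.94. The statement on Gad1 therefore rests on the 1 probe set 1368344_at.

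Gad2, which encodes the other decarboxylase, was under background on 11 of 12 arrays. Its log2 signal was 0.78 to 2.37 in controls (1.51 ± 0.60, n = 6). It was 5.61, 4.21 and 6.60 on non-fibrotic arrays 4, 8 and 10, and 2.16, 2.98 and 5.46 on fibrotic arrays 3, 7 and 9. Non-fibrotic arrays lay above all controls, while fibrotic arrays overlapped with them, and non-fibrotic array 10 was the one above background. The difference from controls of 3.97 in non-fibrotic bronchi (SE 0.85, adjusted p = 0.0193, limma) and of 2.02 in fibrotic bronchi (SE 0.85, adjusted p = 0.112, limma) did not pass the test. With values under background set to it, the non-fibrotic difference was 0.03.

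Abat, for GABA breakdown, gave no call in any comparison. Its main probe set read 5.24 to 6.74 in controls (5.85 ± 0.54, n = 6). It read 7.43, 6.69 and 7.69 on non-fibrotic arrays 4, 8 and 10 (7.27 ± 0.52), and 6.22, 5.36 and 7.14 on fibrotic arrays 3, 7 and 9 (6.24 ± 0.89). All 3 non-fibrotic arrays were above background against 1 of 6 controls and 1 of 3 fibrotic arrays. The difference from controls was 1.42 in non-fibrotic bronchi (95% CI 0.28 to 2.55, adjusted p = 0.111, limma) and 0.39 in fibrotic bronchi (95% CI -0.74 to 1.52, adjusted p = 0.660, limma). The other Abat probe sets, 1391365_at and 1375321_at, were each above background on 1 array.

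Gabrp, for the epithelial GABA-A receptor subunit, was the member with signal on every array, and its 2 probe sets gave different calls. The main probe set (1387600_at) read 9.22 to 11.45 in controls (10.20 ± 0.86, n = 6). It read 10.17, 9.33 and 8.03 on non-fibrotic arrays 4, 8 and 10, and 7.62, 7.85 and 10.24 on fibrotic arrays 3, 7 and 9. Fibrotic arrays 3 and 7 were under all controls, while fibrotic array 9 was among them. The fibrotic difference of -1.63 (SE 0.60, adjusted p = 0.0739, limma) did not pass. It was -2.62 against controls 1 and 2 alone and -1.14 against controls 3 to 6 alone. Without fibrotic array 9 it was -2.47 (adjusted p = 0.0107, limma), within a range of 0.00714 to 0.291 over its alternatives. The other probe set (1385190_at) read 9.47 to 11.11 in controls (10.15 ± 0.63), 7.55, 7.88 and 9.21 in fibrotic bronchi and 9.12, 7.99 and 7.47 in non-fibrotic bronchi. On it neither exposed group overlapped with the controls. It fell in fibrotic bronchi by 1.94 on the log2 scale (SE 0.45, adjusted p = 0.00714, limma). In non-fibrotic bronchi its difference of -1.95 (adjusted p = 0.0252, limma) did not pass.

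**Figure D2:**
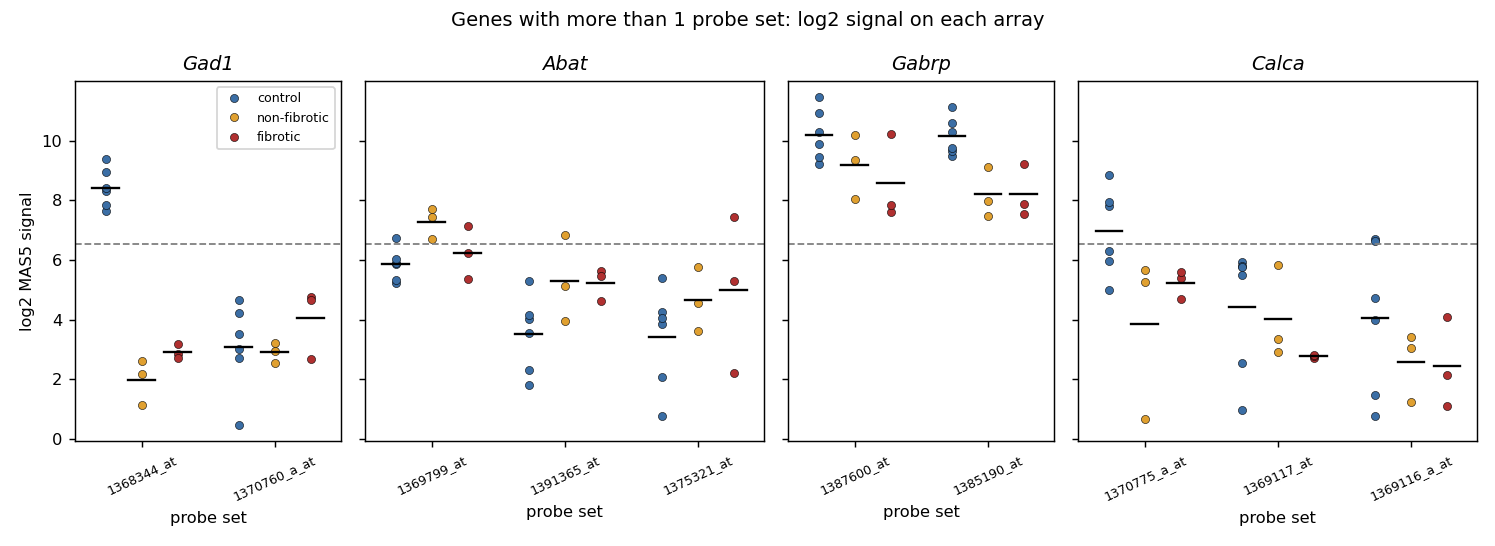
Log2 MAS5 signal (vertical axis) on each array for every probe set (horizontal axis) of the 4 genes with more than 1. Points are single arrays coloured by group, black bars are group means, and the dashed line is the background level of 6.52. The second Gad1 probe set stays under the line in all groups, and both Gabrp probe sets stay above it.

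Of the peptide genes, Calca varied most among the controls. Its log2 signal on controls 1 to 6 was 4.98, 8.84, 5.95, 7.79, 7.93 and 6.31 (6.97 ± 1.45, n = 6). It was 5.41, 4.70 and 5.58 on fibrotic arrays 3, 7 and 9 (5.23 ± 0.47), and 5.26, 0.66 and 5.65 on non-fibrotic arrays 4, 8 and 10 (3.86 ± 2.77). Signal above background was read on controls 2, 4 and 5 alone, and both exposed groups overlapped with the controls. The fitted differences from controls were -1.74 in fibrotic bronchi (SE 1.02, adjusted p = 0.260, limma) and -3.11 in non-fibrotic bronchi (SE 1.02, adjusted p = 0.0750, limma), and neither passed. Every exposed array was under background, and the control mean was 1.37-fold over that level. This is not a lower limit of the difference, as 3 of the 6 controls were under background too. The other Calca probe sets were under background on all 12 arrays (1369117_at) or above it on 2 (1369116_a_at), and neither gave a call.

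Tac1, the substance P gene, stayed under background on all 12 arrays. Controls read 1.90 to 4.5 (3.44 ± 1.08, n = 6), non-fibrotic arrays 5.29, 4.59 and 4.68, and fibrotic arrays 5.56, 2.91 and 3.40. Non-fibrotic arrays did not overlap with controls, but at this signal the order has no meaning. Tac1 gave no call (adjusted p = 0.707 in fibrotic and 0.277 in non-fibrotic bronchi, limma), and no fold is given.

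Chga, the granule marker, read 2.14 to 6.17 in controls (4.43 ± 1.90, n = 6). It read 6.58, 2.19 and 4.48 on fibrotic arrays 3, 7 and 9, and 5.15, 3.73 and 6.07 on non-fibrotic arrays 4, 8 and 10. Fibrotic array 3 was the one array above background, by 0.06. The differences from controls were -0.02 in fibrotic bronchi (95% CI -2.40 to 2.37, adjusted p = 0.994, limma) and 0.55 in non-fibrotic bronchi (95% CI -1.83 to 2.94, adjusted p = 0.784, limma). These intervals hold the differences that the data allow, and their ends are not the smallest change that could have been called.

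Uchl1 was the one neuroendocrine or nerve gene of the set that was higher on every fibrotic array. It read 8.37, 7.47 and 7.29 on fibrotic arrays 3, 7 and 9 (7.71 ± 0.58, n = 3). Controls 1 to 6 read 6.40, 4.74, 6.38, 6.29, 6.10 and 6.32 (6.04 ± 0.65, n = 6), and non-fibrotic arrays 4, 8 and 10 read 6.22, 5.06 and 6.87 (6.05 ± 0.92, n = 3). All fibrotic arrays were above background and did not overlap with either other group, and all controls were under it. The difference between fibrotic bronchi and controls was 1.67 (SE 0.55, 95% CI 0.51 to 2.84), with an adjusted p = 0.0457 (limma) that missed the threshold of 0.01. The fibrotic mean was 2.29-fold over the background level. That value makes no allowance for spread and is not a lower limit of the difference. Control 2 was the lowest of the controls. The difference was 2.14 against controls 1 and 2 alone (adjusted p = 0.220, limma) and 1.44 against controls 3 to 6 alone (adjusted p = 0.0611, limma), within a range of 0.00307 to 0.220 over all alternatives. Fibrotic exceeded non-fibrotic bronchi by 1.66 (SE 0.63, adjusted p = 0.119, limma), and non-fibrotic bronchi differed from controls by 0.01 (95% CI -1.16 to 1.17, adjusted p = 0.994, limma).

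**Figure D3:**
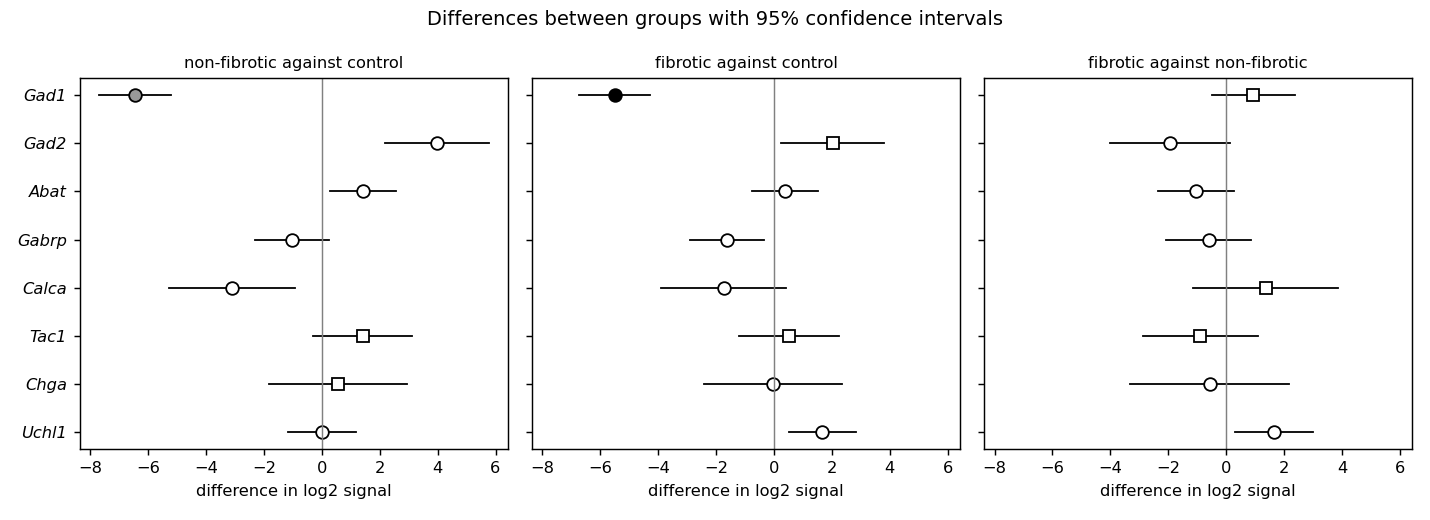
Difference in log2 signal (horizontal axis) for the main probe set of each of the 8 genes (vertical axis) in the 3 comparisons, with 95% confidence intervals from limma. Black points have an adjusted p under 0.01, the grey point (Gad1 in non-fibrotic bronchi, -6.45) is given without a test, and squares mark genes whose arrays were all under background in both groups. Gad1 at -5.51 in fibrotic bronchi is black, and no gene is filled between fibrotic and non-fibrotic bronchi.

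Over the set, 1 of 8 genes was called in fibrotic bronchi against controls, in a comparison in which 12.5% of all genes were called, 4.13% higher and 8.38% lower. That gene was Gad1. In non-fibrotic bronchi, with Gad1 set aside as untested, 0 of the other 7 were called by limma (3, Gad2, Abat and Calca, at an unadjusted p under 0.05), with 0.619% of all genes called, 0.183% higher and 0.436% lower. Between fibrotic and non-fibrotic bronchi 0 of 8 were called by limma (1, Uchl1, at an unadjusted p under 0.05), against 5.30% of all genes called, 1.47% higher and 3.83% lower. Shares of all genes called, here and below, are at an adjusted p under 0.01. The share of all genes at an unadjusted p under 0.05 was not computed, so counts at that level have no share to stand beside. Groups without overlap, which 15.1% of all genes showed as higher and 13.4% as lower in fibrotic bronchi, were seen for Uchl1 and Gad1 respectively. In non-fibrotic bronchi 8.40% of all genes were higher without overlap, and Gad2 and Tac1 were the members among them, and 6.37% were lower, with Gad1. Between the exposed groups 14.1% of all genes were higher without overlap in fibrotic bronchi, with Gad1 and Uchl1 the members, and 13.3% were lower, with no member. The median difference of the members was 0.19 in fibrotic and 0.28 in non-fibrotic bronchi, beside 0.10 and 0.00 over all genes.

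Other genes of the GABA system were read from lists of related genes, whose counts in fibrotic bronchi stand beside shares of 4.13% risen and 8.38% fallen over all genes. Among 6 measured genes of GABA synthesis and breakdown, 0 rose and 2 fell in fibrotic bronchi against controls, Gad1 and Gls2, with a median of -0.38. Gls2 encodes a glutaminase, which supplies glutamate. Its level was 10.66 ± 0.78 in controls (n = 6), 10.68 ± 0.10 in non-fibrotic (n = 3) and 8.11 ± 0.53 in fibrotic bronchi (n = 3). Gls2 fell in fibrotic bronchi by 2.54 against controls (SE 0.39, adjusted p = 2.40e-04, limma) and by 2.57 against non-fibrotic bronchi (SE 0.44, adjusted p = 0.00190, limma), with no overlap in either. The latter call was lost in 6 of 28 alternatives, among them the removal of fibrotic array 3 or non-fibrotic array 8 or 10. Against controls 1 and 2 alone its difference from controls was -1.57 and was no longer called.

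The GABA transporters and receptors were mostly at background. Of 3 transporters measured, 2 were under background on all arrays. The third, Slc6a11, was called lower in fibrotic bronchi (2.34 ± 1.05 against 6.24 ± 0.97 in controls, adjusted p = 0.00147, limma). The control mean of Slc6a11 was itself under background, so no fold is given. With values under background set to it, the difference shrank from -3.89 to -0.27 (adjusted p = 0.742, limma). The call was also lost with controls 1 and 2 alone (adjusted p = 0.0414, limma). Removal of fibrotic array 3 (adjusted p = 0.0121) or array 7 (adjusted p = 0.0102) lost it too. The adjusted p of Slc6a11 over its alternatives ran from 7.32e-04 to 0.742. Of 16 GABA-A receptor subunits measured, 11 were under background on all arrays. Gabrb1, for a beta subunit, was called in fibrotic bronchi at 5.39 ± 0.79 against 1.99 ± 0.69 in controls (adjusted p = 0.00644, limma), although every array of both groups was under background. The Gabrb1 call was lost in 11 of 26 alternatives, which include the removal of control 3, 5 or 6 or of any 1 fibrotic array, and its adjusted p over them ran from 0.00323 to 0.0820. The medians over the subunits were 0.60 in fibrotic and 0.80 in non-fibrotic bronchi, and 0 with values under background set to it. Both GABA-B receptor subunits gave no call. Gabbr1 was above background in all groups, at 8.19 ± 0.37 in controls, 8.60 ± 1.13 in non-fibrotic and 8.67 ± 0.19 in fibrotic bronchi. Gabbr2 was 6.04 ± 0.40, 6.94 ± 0.87 and 6.60 ± 0.46 in the same order.

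Among 22 measured secretory granule and neuroendocrine markers, 2 rose and 1 fell in fibrotic bronchi against controls, which is 9.09% and 4.55% of the list beside 4.13% and 8.38% of all genes, so that each share rests on 1 or 2 genes. The median was -0.03, and 5 were under background on all arrays. In non-fibrotic bronchi 0 of 22 were called by limma, beside 0.619% of all genes, with a median of 0.32. At an unadjusted p under 0.05, for which no share of all genes was computed, 3 were higher and 3 lower. The genes that rose were Eno2, a glycolytic enzyme of neurons that other cells also make, and Ncam1, an adhesion molecule of neural, neuroendocrine and natural killer cells. Eno2 was 8.21 ± 0.43 in controls, 8.87 ± 0.51 in non-fibrotic and 10.61 ± 0.32 in fibrotic bronchi, a rise of 2.40 against controls (SE 0.32, adjusted p = 7.84e-05, limma). It was also higher in fibrotic than in non-fibrotic bronchi, by 1.74 (SE 0.37, adjusted p = 0.00765, limma), a call that was lost in 13 of 28 alternatives, among them the removal of control 4 or 6, any 1 fibrotic array, or non-fibrotic array 8 or 10. Ncam1 was 7.48 ± 0.88 in controls, 8.70 ± 0.57 in non-fibrotic and 10.92 ± 0.97 in fibrotic bronchi, a rise of 3.44 (SE 0.51, adjusted p = 2.05e-04, limma). The Ncam1 call was lost against controls 1 and 2 alone (2.61, adjusted p = 0.0314), with the mean of its probe sets (2.12, adjusted p = 0.0639) and on its next brightest probe set (0.78, adjusted p = 0.638), the highest of a range from 2.33e-05. Pam, for the enzyme that amidates peptide hormones, fell by 1.61 in fibrotic bronchi (SE 0.23, adjusted p = 1.77e-04, limma), from 11.53 ± 0.21 in controls to 9.93 ± 0.12. The Pam call was lost in the same 3 settings, at -1.47 (adjusted p = 0.0394), -1.11 (adjusted p = 0.109) and -1.07 (adjusted p = 0.444), the last at the end of a range from 3.55e-05. In non-fibrotic bronchi Pam was 10.25 ± 0.57, a difference of -1.29 (adjusted p = 0.01 after rounding, limma) that did not pass. Calca, Chga and Uchl1 are among the 22.

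Neuroendocrine transcription factors, neuropeptides and nerve markers gave few calls. Over all genes 4.13% were called higher and 8.38% lower in fibrotic bronchi against controls. The shares were 0.183% and 0.436% in non-fibrotic bronchi, and 1.47% and 3.83% between the exposed groups. Of 4 transcription factors measured, 0 were called by limma in any comparison (1, Hes6, at an unadjusted p under 0.05 in fibrotic bronchi) and 2 were under background on all arrays. Hes6, a repressor-family factor, was 9.99 ± 0.29 in controls and 9.17 ± 0.38 in fibrotic bronchi, a difference of -0.82 (adjusted p = 0.0378, limma). Neurod1 was under background on all 12 arrays. Of 18 neuropeptides and receptors, 0 rose and 1 fell in fibrotic bronchi, with a median of 0.24. That is 5.56% of the list, beside the 8.38% of all genes. The gene was Vipr1, the receptor for vasoactive intestinal peptide, at 10.90 ± 0.10 in controls, 10.21 ± 0.75 in non-fibrotic and 5.98 ± 2.26 in fibrotic bronchi. Vipr1 fell by 4.93 against controls (SE 0.63, adjusted p = 5.55e-05, limma) and by 4.23 against non-fibrotic bronchi (SE 0.73, adjusted p = 0.00187, limma). The fibrotic mean was under background because of 1 array, number 9. With signals under background set to it the difference from controls was -3.88, and without fibrotic array 9 it was -3.62. The call against controls was lost with controls 1 and 2 alone (adjusted p = 0.0110) and on the next brightest probe set (-0.76, adjusted p = 0.277), within a range from 3.22e-06. The difference from non-fibrotic bronchi was -2.93 without fibrotic array 9, and its call was lost in 7 of 29 alternatives, among them the removal of non-fibrotic array 8 or 10, the controls 1 and 2 alone, and the next brightest probe set (adjusted p = 0.279, the highest of a range from 1.70e-04). Of 12 nerve fibre and Schwann cell markers, 0 were called by limma in any comparison. The median was 1.01 in fibrotic bronchi, 0.08 with values under background set to it, and 0.10 in non-fibrotic bronchi. At an unadjusted p under 0.05, 3 differed from controls in fibrotic bronchi, with Stmn2 higher and Scn9a and Mbp lower. In non-fibrotic bronchi 2 did, 1 higher and 1 lower. Stmn2, a neuronal microtubule protein, was 5.04 ± 1.20 in controls and 8.38 ± 1.28 in fibrotic bronchi (adjusted p = 0.0141, limma), and all 3 fibrotic arrays but 1 of 6 controls were above background. Scn9a, a sodium channel of sensory nerves, was under background on all arrays.

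**Figure D4:**
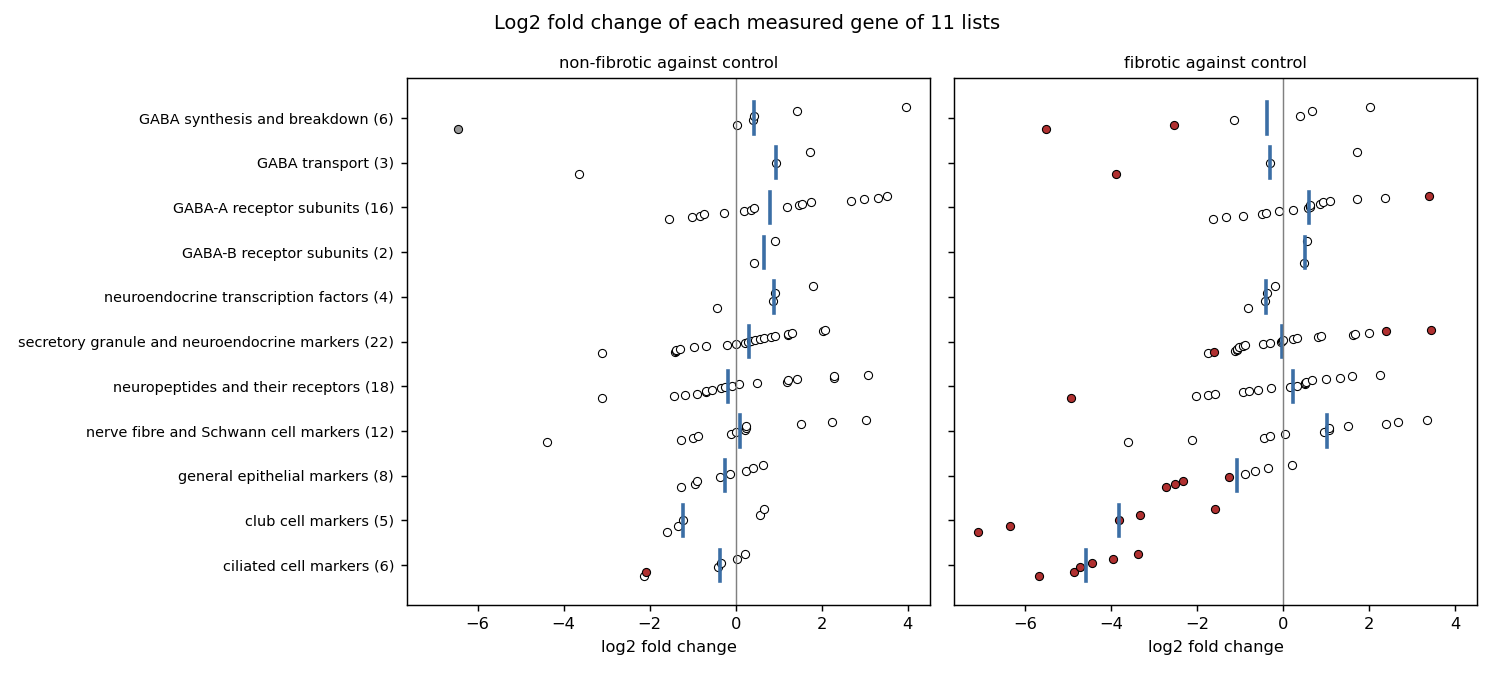
Log2 fold change (horizontal axis) of each measured gene of 11 lists (vertical axis, number of genes in brackets) in non-fibrotic and fibrotic bronchi against controls. Red points have an adjusted p under 0.01, open points do not, the grey point is Gad1 in non-fibrotic bronchi, given without a test, and blue bars are list medians. All 6 ciliated and all 5 club cell markers are red and lower in fibrotic bronchi, while 1 ciliated marker is red in non-fibrotic bronchi.

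Markers of ciliated, club, goblet and general epithelial cells were lower in the fibrotic group. Over all genes 4.13% were called higher and 8.38% lower in fibrotic bronchi against controls, and 0.183% and 0.436% in non-fibrotic bronchi. Of ciliated cell markers 6 of 6 fell in fibrotic bronchi against controls, of club cell markers 5 of 5, of goblet and secretory cell markers 4 of 9 and of general epithelial markers 4 of 8, with medians of -4.58, -3.80, -3.35 and -1.06. The summed ciliated signal was 14.62 to 15.17 on the log2 scale in controls, 14.30 to 14.94 in non-fibrotic and 9.92 to 11.06 in fibrotic bronchi. The summed general epithelial signal was 15.01 to 15.36, 14.89 to 15.38 and 14.17 to 14.83 in the same order. In non-fibrotic bronchi 1 of 6 ciliated, 0 of 5 club, 1 of 9 goblet and 0 of 8 general epithelial markers were called lower. The medians of these lists were -0.37, -1.22, -0.52 and -0.26. At an unadjusted p under 0.05, 2, 3, 3 and 4 were lower and 0, 1, 2 and 1 were higher, in the same order. Of macrophage markers 3 of 7 and of fibroblast and smooth muscle markers 4 of 12 rose in fibrotic bronchi, and 0 of either were called by limma in non-fibrotic bronchi. At an unadjusted p under 0.05, 1 macrophage marker was higher and 1 lower in non-fibrotic bronchi. At that level 2 fibroblast and smooth muscle markers were higher. The summed macrophage signal was 11.22 to 12.43 in controls, 10.45 to 12.85 in non-fibrotic and 13.54 to 14.34 in fibrotic bronchi. Basal and mast cell markers gave 0 calls of 4 and of 5 by limma in fibrotic bronchi against controls (2 of each at an unadjusted p under 0.05, all higher), with medians of 1.41 and 1.55. The 2 basal genes were Krt14 and Ngfr. Of alveolar type II markers 2 of 5 fell. In these lists 1 goblet marker was under background on all arrays and no other. Their part in the values of Gad1, Uchl1, Gls2, Eno2, Ncam1 and Vipr1 was not tested.

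Genes whose pattern over the 12 arrays was most like that of a member were found by Pearson's r among 11703 genes with signal above background on 3 or more arrays. The values are descriptions, since the arrays share the 3 groups and many genes were searched. For Gad1 the closest were Trmt9b (r = 0.95, Spearman's rho = 0.85), Scin (r = 0.95, rho = 0.97) and Bad (r = 0.95, rho = 0.80). For Uchl1 they were Fgd5 (r = 0.99, rho = 0.98), Mcm4 (r = 0.95, rho = 0.85) and Lix1l (r = 0.94, rho = 0.92). For Abat they were Slc7a10 (r = 0.97, rho = 0.95), Mapk4 (r = 0.96, rho = 0.98) and Adgrg6 (r = 0.92, rho = 0.90). For Gabrp they were Lypd6b (r = 0.91, rho = 0.90), Gp2 (r = 0.90, rho = 0.92) and Traf3ip2 (r = 0.89, rho = 0.86). Gabrp alone had signal on all arrays. Gad1, Abat and Uchl1 were under background on 6, 7 and 8 of the 12, where the order of signals is not reliable, and Calca, under it on 9, is left out.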

How the data were processed

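Bronchial wall was microdissected by laser from frozen lung, and 20 ng of RNA was amplified and hybridized to 1 array per specimen. Intensity was computed by the authors with MAS5 in the Affymetrix GeneChip Command Console software (version 1.1) and deposited as 1 linear signal per probe set and array, scaled to the same trimmed mean. MAS5 is also named, without version, in the submitters' processing notes. Detection calls and the authors' error weights from Rosetta Resolver (version 7.2) were not used here. The design text names another array than the probe set names, which are those of an older Affymetrix rat genome array, and the probe set names were followed. Of 31099 probe sets, 57 Affymetrix controls were left out. The annotation gave 1 symbol for 20826 of the rest, several for 436 and none for 9780, and 20758 of the first matched a RefSeq gene (GRCr8).

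Signals were taken to log2 with no pseudocount and no filter. The 3 groups were fitted to all 12 arrays in 1 linear model per probe set with limma 3.58.1 under R 4.3.3 (lmFit, then eBayes with a trend on mean signal), with Benjamini-Hochberg adjustment within each comparison over 31042 probe sets. The study's analysis of variance used error weights, for which the moderated spread stands in. The scripts were tested on simulated data. The number of arrays limits the precision, and p-values measure the spread between these specimens. Members, gene lists and tests were chosen with earlier results of these data known. Named genes were all members, the genes called in each list of the GABA system, neuroendocrine cells, neuropeptides and nerve (otherwise those of smallest p), and the 3 genes closest to a member with signal on 3 or more arrays. The rule also named the 2 brightest genes of each other cell type list, of which only counts and sums are printed. Alternatives were other moderation, thresholds, floors, normalization, sets of controls, probe set rules and leaving out each array in turn.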

Additional observations from a re-analysis of the deposited data

Results flagged for a closer look

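The Uchl1 signal of control 2, 4.74, stood apart from the other 5 controls, of which the nearest was 6.10. The gap was 0.821 of the range of the 6 controls. Of 14 control groups examined, 1 for each member probe set, this was the 1 that stood apart, and chance gives about 1 in 20. Without control 2 the difference in Uchl1 between fibrotic bronchi and controls was 1.41 (adjusted p = 0.0593), limma.

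Signal differed between fibrotic and non-fibrotic bronchi for 3 genes of the related lists by limma, in a comparison in which 5.30% of all genes were called. They were 1 of 6 genes of GABA synthesis and breakdown, 1 of 22 secretory granule and neuroendocrine markers and 1 of 18 neuropeptides and receptors. The other lists of the GABA system, neuroendocrine cells and nerve gave no call. Cell type markers also differed between these tissues, and their part was not tested. None of the 3 calls held under every alternative. Eno2 was higher in fibrotic bronchi by 1.74 on the log2 scale, a call lost in 13 of 28 alternatives. Gls2 fell by 2.57 in fibrotic relative to non-fibrotic bronchi, a call lost in 6 of 28. Vipr1 fell by 4.23, a call lost in 7 of 29. None of the 8 members passed that test.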

How the results depend on the processing

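Over 29 alternatives, 656 values of the 24 member differences were computed. Of these 620 kept their direction and their side of the threshold, 5 were no longer under the threshold, 5 came under it and 26 turned sign. Of the 5 no longer under it, 4 were of Gad1 in non-fibrotic bronchi, which is described and not tested. None of the 26 was itself called. Gad1 kept its call in fibrotic bronchi in 26 of 28 alternatives. The 620 are not independent checks, because many alternatives could not change the difference. Another moderation or threshold leaves it as it was, and so does removal of an array outside the comparison. The Gad1 difference in fibrotic bronchi stayed at -5.51 without non-fibrotic array 4, 8 or 10. A threshold of 0.05 can lose no call. Where both groups were under background, the floor leaves no difference, and no value was counted. No paired analysis was possible because the labels do not tie fibrotic and non-fibrotic arrays to rats, and these groups share no number. The numbers that controls share with fibrotic arrays (3) and with non-fibrotic arrays (4) do not make pairs, as controls were other rats.

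The number of members that fell in fibrotic bronchi was 1, and 0 with the lowest 40% of probe sets dropped (1 member then measured) and with the mean of probe sets, where Gad1 was -2.28 (adjusted p = 0.0136). In non-fibrotic bronchi Gad1 is described and not tested. Its difference there was -1.90 with a floor at background and -6.86 with controls 1 and 2 alone. It was -3.32 with the mean of probe sets and -0.19 with the next brightest probe set. The adjusted p of Gad1 over its alternatives ran from 6.17e-06 to 0.506 in fibrotic bronchi. The number that rose in fibrotic bronchi was 0, and 1 (Uchl1) at an adjusted p under 0.05 and with the floor (1.19, adjusted p = 0.00307, range 0.00307 to 0.220). In non-fibrotic bronchi it was 0, and 1 (Gad2) at an adjusted p under 0.05 and at a fold over 2 with p under 0.001. Gad1 was the call lost when the lowest 40% was dropped, because its probe set was not among those tested.

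Differences that turned sign were small or between signals near background, and the cause was not tested. In fibrotic bronchi against controls they were Gad1 0.94 with the next brightest probe set, and, with single arrays left out, Abat (-0.060 to 0.83, below 0 without fibrotic array 9) and Tac1 (-0.29 to 1.04, below 0 without fibrotic array 3). Chga turned to 0.70 with array weights, 0.020 with the floor, 0.000761 with a pseudocount of 16, 0.049 with median centring and 0.78 with controls 3 to 6 alone, and ran from -1.10 to 1.1 when single arrays were left out. Between fibrotic and non-fibrotic bronchi Calca turned to -0.0066 with the mean of probe sets and -1.26 with the next brightest, and ran from -0.23 to 2.27 with single arrays left out. Chga turned there to 0.020 with the floor and ran from -1.65 to 0.54, and Gabrp turned to 0.018 with the other probe set. In non-fibrotic bronchi against controls Chga turned to -1.04 with controls 1 and 2 alone. Uchl1 turned there to -0.011 with array weights, -0.0083 with median centring, -0.25 with quantile normalization, -0.23 with controls 3 to 6 alone, and ran from -0.40 to 0.50 when single arrays were left out.

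Over all probe sets 2914, 162 and 1185 were called in the 3 comparisons (fibrotic and non-fibrotic against control, and between them), and 408, 2 and 514 with controls 1 and 2 alone, 1760, 42 and 386 without moderation, 4863, 200 and 610 with array weights, and 5541, 1811 and 2970 at an adjusted p under 0.05. Signal over background limits Gad2, Tac1, Chga and Calca, whose levels in most groups are bounds.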
